A study of Mus musculus with 20 samples.

Results

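The genes described here are 9 sensors and brakes through which a cell matches protein synthesis to its supply of amino acids: the sestrins *Sesn1*, *Sesn2* and *Sesn3*, the mTORC1 inhibitors *Ddit4* and *Deptor*, the translational repressors *Eif4ebp1* and *Eif4ebp2*, and the eIF2 kinases *Eif2ak3* and *Eif2ak4*. They were chosen by name as members of this pathway, though with earlier results of these data known. They are 9 of the 46078 genes of the count table. All 9 were among the 14759 genes with enough counts for a test.

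Levels were measured by poly(A) RNA-seq in the livers of 20 male mice. All mice were at least 9 weeks old, were bred on a mixed 129/C57BL/6 background and were held on calorie restriction (CR), first on a CR control diet and then for 2 days on their assigned diet. *Cse* (symbol *Cth*) encodes cystathionine γ-lyase, the last enzyme of cysteine synthesis from methionine. Of the *Cse*+/- mice, 2 stayed on CR control food, 4 ate a CR diet lacking cysteine (no-Cys) and 3 ate a CR diet lacking tryptophan (no-Trp). Of the *Cse*-/- mice, 4 were on no-Cys, 3 on no-Trp and 4 on no-Trp with l-buthionine sulfoximine (no-Trp + BSO), an inhibitor of γ-glutamyl cysteine synthase in the synthesis of glutathione. The sample labels call the control genotype wild type, whereas the study's list of mice calls it heterozygous, and it is named *Cse*+/- here. There was no group of *Cse*-/- mice on the control diet, and the deletion was of the whole animal rather than of the liver alone.

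Amino acid shortage is read by more than a single system. GCN2, the product of *Eif2ak4*, is activated by uncharged tRNA, and PERK, the product of *Eif2ak3*, by unfolded protein in the endoplasmic reticulum. Both phosphorylate eIF2, which lowers general translation and raises translation of the transcription factor ATF4. The other system is mTORC1 at the lysosome, where sestrins bind GATOR2 and hold the kinase back when leucine is low, REDD1 (encoded by *Ddit4*) acts through the TSC complex, and DEPTOR binds mTOR itself. When mTORC1 is inactive, the 4E-BP proteins (encoded by *Eif4ebp1* and *Eif4ebp2*) are unphosphorylated and bind the cap-binding factor eIF4E, which blocks initiation. *Sesn2*, *Ddit4* and *Eif4ebp1* are known targets of ATF4 in other settings. Transcript levels do not report the phosphorylation or the activity of any of these proteins.

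Promoter sequence is shown for the members that differed between genotypes on the no-Cys diet and have an entry in the RefSeq promoter table used (GRCm38.p6). Of the 9 members, 7 matched that table, and *Deptor* and *Eif4ebp1* did not. The stretches end before the first annotated exon base. Each is written 5′ to 3′ on the strand of the gene, and the capitals mark the letters CCAAT or their reverse complement ATTGG. *Sesn2* lies on the minus strand (chr4:132510502-132510706), *Eif2ak3* on the plus strand (chr6:70844265-70844514) and the first start of *Eif2ak4* on the plus strand (chr2:118388367-118388616).
Sesn2: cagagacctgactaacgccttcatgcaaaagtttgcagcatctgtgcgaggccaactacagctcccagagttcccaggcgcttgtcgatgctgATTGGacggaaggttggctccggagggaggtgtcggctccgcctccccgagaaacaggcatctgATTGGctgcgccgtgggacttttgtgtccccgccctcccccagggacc
Eif2ak3: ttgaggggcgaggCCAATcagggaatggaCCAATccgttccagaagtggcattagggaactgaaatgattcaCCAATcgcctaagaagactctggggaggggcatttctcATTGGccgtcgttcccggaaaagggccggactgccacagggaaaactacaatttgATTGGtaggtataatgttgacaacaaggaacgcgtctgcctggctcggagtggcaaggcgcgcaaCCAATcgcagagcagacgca
Eif2ak4: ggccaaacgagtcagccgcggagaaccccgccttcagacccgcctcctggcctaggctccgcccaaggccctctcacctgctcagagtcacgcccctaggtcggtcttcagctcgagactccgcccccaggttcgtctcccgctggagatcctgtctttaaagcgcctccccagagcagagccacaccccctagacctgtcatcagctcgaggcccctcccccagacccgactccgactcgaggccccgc

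The promoter of *Eif2ak3*, whose transcript was higher in *Cse*-/- than in *Cse*+/- livers on no-Cys, held 6 copies of CCAAT counted on both strands. As many or more were found in 26 of 32851 promoter windows of 300 bases (0.0791%). The promoter of *Sesn2*, also higher, held 2 copies, a number reached by 11.7% of promoters, and those of *Eif2ak4*, which was lower, held 0. *Sesn3* held 4 copies (1.06% of promoters hold as many) and *Ddit4* held 2, and neither of these genes differed between the genotypes. The letters CCAAT were chosen after the sequences had been seen. Of the other motifs searched on both strands, TGATGNAA (the core of the C/EBP-ATF response element, in 3.97% of promoters) and CACGTG (the E-box, in 7.15%) matched none of the 7 members searched. TGACNNNGC (the core of the antioxidant response element, in 12.4% of promoters) matched *Sesn2* only, 36 bases upstream of the RefSeq start and apart from its copies of CCAAT, and GTAAACA (a FoxO motif, in 3.65%) matched *Sesn1* only. A match is a description of these letters and not of a bound site.

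The libraries held 11785740 to 57986121 reads counted on genes, with a median of 15252745. Among the *Cse*-/- no-Cys livers, the library of mouse av08 stood apart. Its counts differed from those of its group mates by a chi-square per gene of 43.3 to 48.9, against 9.6 to 16.3 among the other 3 libraries, and it was the lowest of its group in *Sesn2*, *Sesn3*, *Ddit4*, *Deptor* and *Eif4ebp1*. Some pairs in other groups lay as far apart, such as mice av14 and av15 (*Cse*-/- no-Trp, 64.2) and mice av01 and av04 (*Cse*+/- no-Cys, 49.8). *Cth*, the deleted gene, was between 88.4 and 332 CPM (counts scaled to 1000000 per library) in the *Cse*+/- livers and between 6.37 and 14.4 CPM in the *Cse*-/- livers, so that every library matched its genotype. Transcripts of 7 hepatocyte markers summed to 48600 to 122000 CPM over all libraries. On no-Cys, these sums were 48600 to 78600 CPM in *Cse*-/- and 93700 to 117000 CPM in *Cse*+/- livers. The sums of 5 cholangiocyte markers (16.4 to 28.6 against 45.9 to 57.9 CPM) and of 5 red cell genes (69.1 to 114 against 201 to 406 CPM) also did not overlap between these groups, nor did those of 6 stellate cell and fibroblast markers (184 to 226 against 233 to 279 CPM). Sums of 7 Kupffer cell (169 to 221 against 208 to 265 CPM) and 6 endothelial markers (155 to 169 against 157 to 195 CPM) overlapped. The sum of 7 lymphocyte and neutrophil markers was at most 14.1 CPM in any library, and that of 6 muscle genes was at most 1.17 CPM. The sum of 6 adipose genes reached 45.4 CPM in a *Cse*+/- no-Trp liver (8.69 to 45.4 CPM in that group) and was 5.61 to 15.5 against 3.97 to 7.54 CPM in the groups on no-Cys, and that of 7 pancreas genes was 8.87 to 25.8 CPM over all libraries. Between no-Cys and no-Trp livers of *Cse*-/- mice, the sums of red cell genes (69.1 to 114 against 119 to 184 CPM), of endothelial markers (155 to 169 against 172 to 175 CPM) and of lymphocyte and neutrophil markers (6.2 to 7.92 against 9.2 to 9.6 CPM) did not overlap. Between *Cse*-/- and *Cse*+/- livers on no-Trp, those of hepatocyte (76900 to 84000 against 88500 to 96700 CPM), cholangiocyte (27.6 to 46.2 against 48 to 62.1 CPM) and red cell genes (119 to 184 against 211 to 258 CPM) did not. Cholangiocyte sums were also lower on no-Cys than on no-Trp + BSO (36.3 to 48.6 CPM), and adipose sums lower with BSO (5.35 to 7.57 CPM) than without (7.91 to 23.1 CPM). Hepatocyte sums were higher in the control livers (121000 to 122000 CPM) and Kupffer cell sums lower (178 to 202 CPM) than in *Cse*+/- livers on no-Cys or no-Trp (208 to 265 and 225 to 283 CPM for Kupffer cell sums). The part of these differences in the results below was not tested. In the hepatocyte sums, *Alb* alone was at 25500 to 88000 CPM over all libraries. In whole liver, fewer cells of a type and less RNA of its markers per cell cannot be told apart. Each library came from a separate mouse.

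Across all 20 livers and per length of exon, *Eif4ebp1* and *Deptor* were the most abundant members, with 35.4 and 35.1 CPM per kilobase. *Ddit4* (12) and *Eif4ebp2* (11.1) followed. *Sesn2* and *Sesn1* were near each other at 4.12 and 3.81 CPM per kilobase, *Eif2ak3* was at 2.57 and *Eif2ak4* at 1.01. *Sesn3* was the lowest at 0.109 CPM per kilobase, and its counts per library were between 14 and 79.

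**Figure D1:**
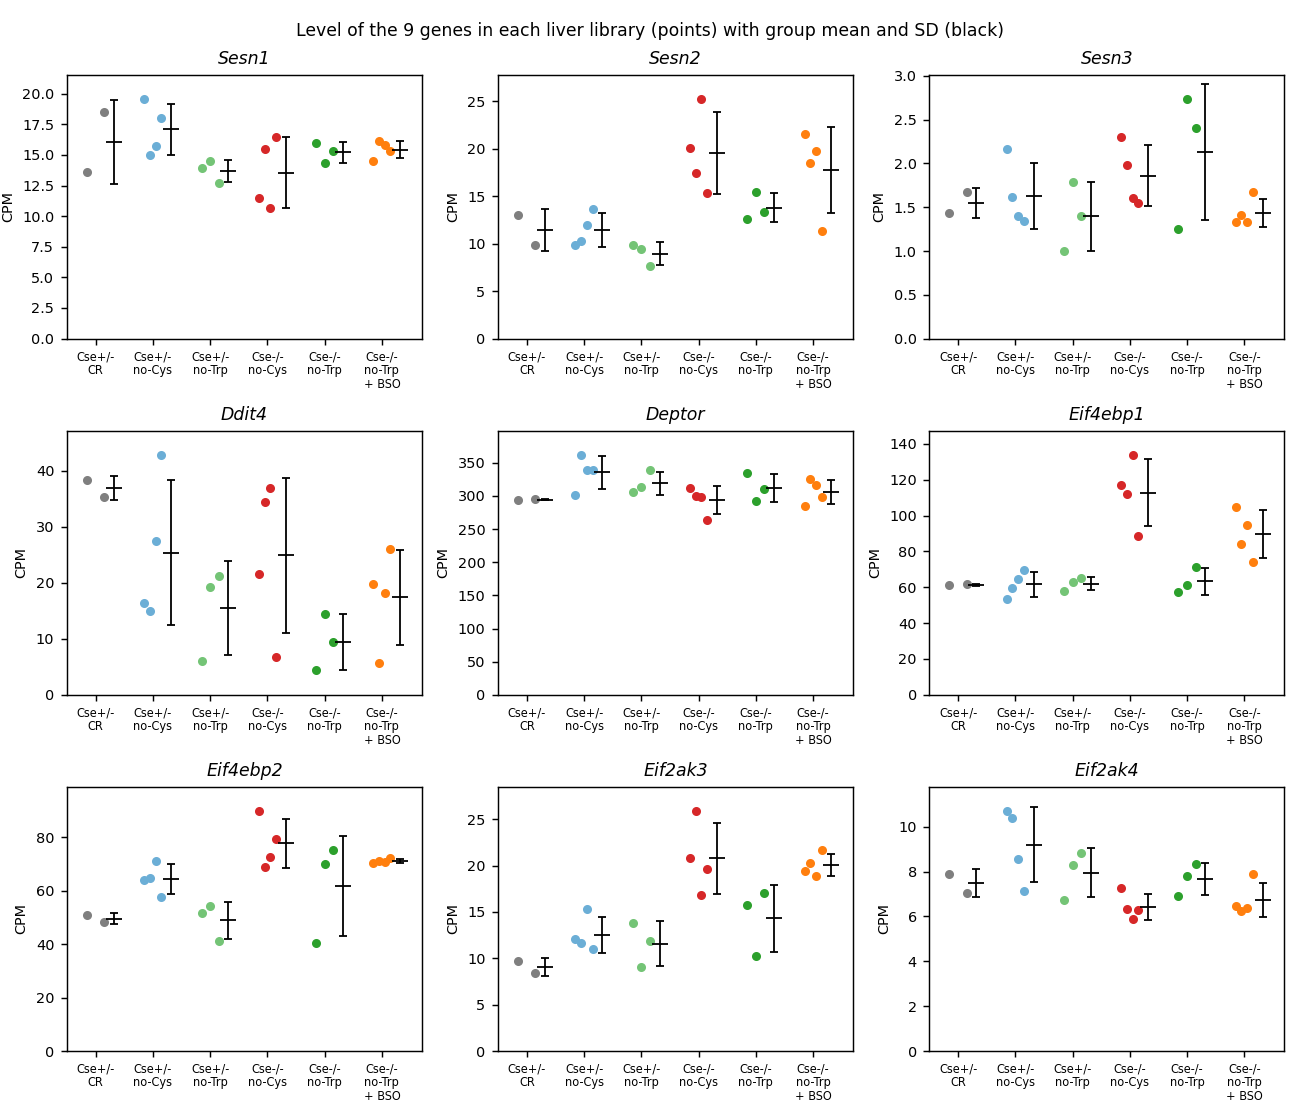
Level of each of the 9 genes in CPM (vertical axis, from 0) in every liver library (points), by group (horizontal axis), with the mean and SD of the group in black. *Eif4ebp1* stood between 88.4 and 134 CPM in *Cse*-/- no-Cys livers and between 53.4 and 71.4 CPM in the other groups without BSO, whereas *Ddit4* ranged widely within nearly every group.

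The main comparison was of genotype on the no-Cys diet, in which only the *Cse*-/- mice cannot make the missing amino acid. Of the 9 members, *Eif4ebp1*, *Sesn2* and *Eif2ak3* were higher and *Eif2ak4* was lower in *Cse*-/- livers, called at an adjusted p under 0.05 by edgeR's quasi-likelihood test with adjustment over all genes tested. These were 4 of 9 members, where 23.8% of all genes tested passed the same threshold (11.6% higher and 12.2% lower). DESeq2 also called 4 members, and 24.2% of all genes. The median log2 fold change of the 9 was 0.2. Without mouse av08 edgeR called 5 members, with log2 fold changes of 0.971 for *Eif4ebp1*, 0.871 for *Sesn2*, 0.755 for *Eif2ak3*, -0.499 for *Eif2ak4* and -0.45 for *Sesn1*. Without mouse av07 it called 3 members. With 9 members, their share was not tested against that background.

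Of the eIF2 kinases, *Eif2ak3* (PERK, chr6:70844515-70905245, plus strand) was at 20.8, 25.9, 16.8 and 19.6 CPM in the 4 *Cse*-/- no-Cys livers and at 12.1, 11.7, 15.3 and 11 CPM in the 4 *Cse*+/- no-Cys livers. Every *Cse*-/- liver was above every *Cse*+/- liver. The means were 20.8 ± 3.79 and 12.5 ± 1.9 CPM (SD, n = 4 each), a log2 fold change of 0.73 ± 0.165 (SE, edgeR, adjusted p = 0.0034). Of its exon bases 8.05% lie opposite the gene *Gm43292*, and the sources used here do not say whether the counts used strand.

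*Eif2ak4* (GCN2, chr2:118388618-118475234, plus strand), the kinase that reads uncharged tRNA, moved the other way. It was at 7.26, 6.31, 5.9 and 6.27 CPM in *Cse*-/- and at 10.7, 10.4, 8.55 and 7.15 CPM in *Cse*+/- no-Cys livers. The highest *Cse*-/- liver lay just above the lowest *Cse*+/- liver, so that the ranges overlapped. The log2 fold change was -0.51 ± 0.141 (SE, edgeR, adjusted p = 0.0125). Without the *Cse*-/- no-Cys mouse av07 it was no longer past the threshold (adjusted p = 0.0508).

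Among the sestrins, *Sesn2* (chr4:132492032-132510501, minus strand) was at 20.1, 17.5, 25.3 and 15.3 CPM in *Cse*-/- and at 9.82, 10.3, 12 and 13.7 CPM in *Cse*+/- no-Cys livers. The groups did not overlap. The log2 fold change was 0.77 ± 0.187 (SE, edgeR, adjusted p = 0.00556), a 1.71-fold higher level. *Sesn1*, which p53 is known to induce, was at 13.5 ± 2.9 against 17.1 ± 2.12 CPM (SD, n = 4 each) and was not called (log2 fold change -0.34, edgeR, adjusted p = 0.074). *Sesn3*, a known FoxO target, was at 1.86 ± 0.35 against 1.63 ± 0.374 CPM, with an interval of -0.34 to 0.75 for its log2 fold change.

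Of the mTORC1 brakes, *Deptor* was at 312, 300, 298 and 263 CPM in *Cse*-/- and at 302, 362, 339 and 339 CPM in *Cse*+/- no-Cys livers. The groups overlapped, and the log2 fold change of -0.19 was not called (edgeR, adjusted p = 0.0938). *Ddit4* was at 21.6, 34.4, 36.9 and 6.71 CPM against 16.4, 15, 27.4 and 42.9 CPM. The values ranged widely and overlapped in both genotypes, and the 95% interval of the log2 fold change was -1.06 to 0.99.

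The translational repressor *Eif4ebp1* showed the smallest p of the 9. The gene lies at chr8:27260329-27276674 on the plus strand (GRCm38), and 1.67% of the 61-base words of its transcripts occur in another gene. It was at 117, 112, 134 and 88.4 CPM in *Cse*-/- and at 53.4, 59.5, 64.4 and 69.6 CPM in *Cse*+/- no-Cys livers. All *Cse*-/- livers were above all *Cse*+/- livers. The log2 fold change was 0.87 ± 0.124 (SE, edgeR, adjusted p = 7.23e-05), or 1.83-fold. Its paralogue *Eif4ebp2* was at 77.6 ± 9.22 against 64.3 ± 5.52 CPM (SD, n = 4 each), with overlapping groups and a log2 fold change of 0.27 that was not called (edgeR, adjusted p = 0.174).

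**Figure D2:**
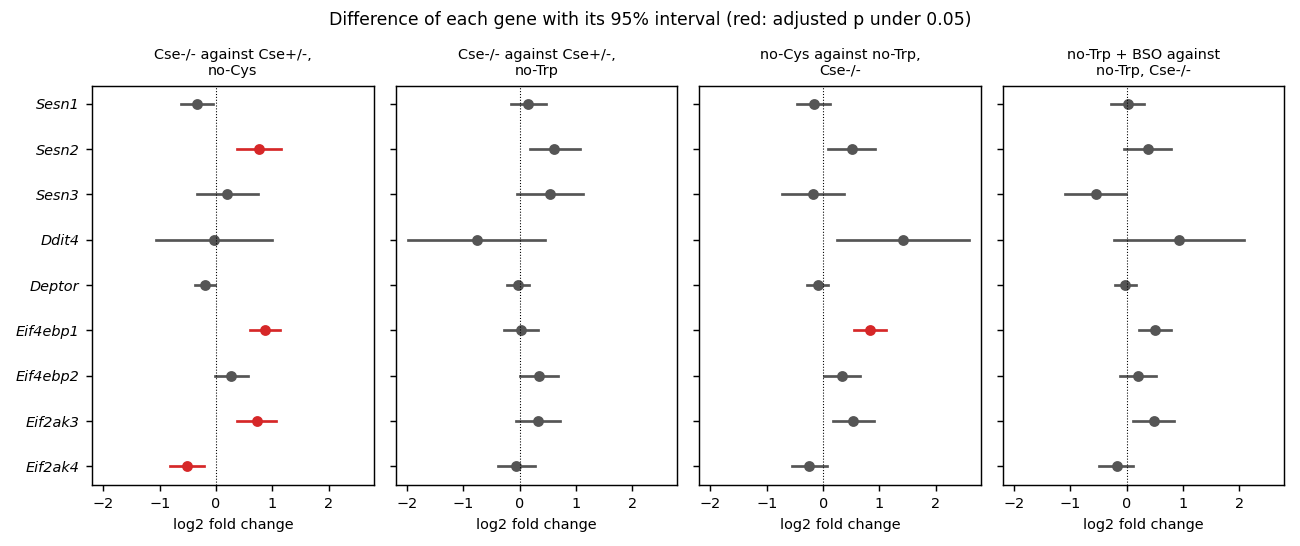
Log2 fold change of each gene (horizontal axis) with its 95% interval in 4 comparisons, named above each panel; red marks an adjusted p under 0.05 and grey the rest. *Eif4ebp1* is red in the first panel (0.87) and in the third (0.83), and the intervals of *Ddit4* are the widest in all 4 panels.

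On the no-Trp diet, where both genotypes lack the same amino acid, none of the 9 members differed between *Cse*-/- and *Cse*+/- livers by edgeR, where 2.64% of all genes did. DESeq2 also called 0, with 4.92% of all genes called. By edgeR, 1 member had an unadjusted p under 0.05, as did 2713 of all 14759 genes. That member was *Sesn2*, at 12.6, 15.5 and 13.3 CPM in *Cse*-/- and at 9.88, 9.4 and 7.61 CPM in *Cse*+/- livers. These groups did not overlap, and the log2 fold change was 0.62 ± 0.213 (SE, edgeR, adjusted p = 0.125). *Eif4ebp1* was at 57.2, 61.3 and 71.4 CPM in *Cse*-/- and at 58.1, 63 and 65.1 CPM in *Cse*+/- livers, with a log2 fold change of 0.03 and an interval of -0.27 to 0.32.

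Whether the difference between genotypes depended on the diet was tested as an interaction over the 4 groups on no-Cys and no-Trp. *Eif4ebp1* was the only member called, with 0.84 ± 0.189 (SE, log2 scale, edgeR, adjusted p = 0.0154), where 4.36% of all genes were called. DESeq2 also called 1 member, and 8.06% of all genes. The genotype difference of *Eif4ebp1* was thus larger on no-Cys than on no-Trp. *Sesn2* had nearly the same difference on either diet (0.77 and 0.62), with an interaction of 0.15 and an interval of -0.44 to 0.74. For *Eif2ak3* the interaction was 0.4, with an interval of -0.12 to 0.92, and for *Eif2ak4* it was -0.45 (edgeR, adjusted p = 0.237). The interaction of *Sesn1* was -0.49 (edgeR, adjusted p = 0.181).

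Within *Cse*-/- mice, livers on no-Cys were compared with those on no-Trp, which are both diets without an amino acid the animal cannot make. *Eif4ebp1* was higher on no-Cys (113 ± 18.7 CPM, SD, n = 4) than on no-Trp (63.3 ± 7.26 CPM, SD, n = 3). The groups did not overlap, and the log2 fold change was 0.83 ± 0.135 (SE, edgeR, adjusted p = 0.000807). It was the only 1 of 9 members called, where 10.4% of all genes were. *Eif2ak3* had a log2 fold change of 0.53 and fell short by edgeR (adjusted p = 0.0579) but passed by DESeq2 (adjusted p = 0.033), which called 2 members and 14.4% of all genes. *Sesn2*, at 0.51 (edgeR, adjusted p = 0.107), and *Ddit4*, at 1.42 ± 0.559 (SE, edgeR, adjusted p = 0.109), did not pass. For *Ddit4* the no-Trp livers were at 4.45, 14.5 and 9.41 CPM, which overlapped the no-Cys livers only through mouse av08 at 6.71 CPM. Without mouse av08 the log2 fold change of *Ddit4* was 1.73 (edgeR, adjusted p = 0.032). With any other library of these groups left out it did not pass (edgeR, adjusted p = 0.075 to 0.342).

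BSO added to the no-Trp diet, which blocks glutathione synthesis, was followed by no called difference in the 9 members in *Cse*-/- livers by edgeR, where 0.793% of all genes were called. At an unadjusted p under 0.05 there were 3 members and 1926 of all 14759 genes. *Eif4ebp1* was at 105, 84.3, 95 and 73.9 CPM with BSO, all above the 3 livers without BSO (57.2 to 71.4 CPM). Its log2 fold change was 0.5 ± 0.134 (SE, edgeR, adjusted p = 0.0832), and DESeq2 called it (adjusted p = 0.025) as its only member, where it called 2.8% of all genes. *Eif2ak3* was at 19.4, 20.3, 18.9 and 21.7 CPM with BSO and at 15.7, 10.2 and 17 CPM without, again with no overlap (log2 fold change 0.48, edgeR, adjusted p = 0.202). *Sesn3*, the third, was lower with BSO, with a log2 fold change of -0.55 and overlapping groups (edgeR, adjusted p = 0.37).

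No member was called between no-Cys and no-Trp + BSO in *Cse*-/- livers by edgeR or DESeq2, where edgeR called 2.75% of all genes (406 genes, but 52 without mouse av06 and 1027 without mouse av08) and DESeq2 6.44%, and 1 member had an unadjusted p under 0.05. Such a p was found in 2958 of all 14759 genes. The member was *Eif4ebp1*, with 113 ± 18.7 against 89.7 ± 13.6 CPM (SD, n = 4 each), overlapping groups and a log2 fold change of 0.33 (edgeR, adjusted p = 0.139). Without the no-Cys mouse av08 it was 0.43 and passed (edgeR, adjusted p = 0.0294). With any other library of these groups left out it did not pass (edgeR, adjusted p = 0.114 to 0.323). *Eif2ak3* was at 20.8 and 20.1 CPM in these groups, and the interval of its log2 fold change was -0.28 to 0.38.

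In *Cse*+/- mice, which can make cysteine, neither diet was followed by a called difference from the CR control diet. On no-Cys 0 of 9 members were called by edgeR and by DESeq2, where edgeR called 2.18% of all genes (322 genes, but 10 without the control mouse av22) and DESeq2 4.68%, and 2 had an unadjusted p under 0.05. Such a p was found in 2456 of all 14759 genes. The 2 members were *Eif2ak3*, at 12.5 ± 1.9 against 9.76 and 8.42 CPM in the control livers (log2 fold change 0.46, edgeR, adjusted p = 0.28), and *Eif4ebp2*, at 64.3 ± 5.52 against 50.9 and 48.2 CPM (0.38, edgeR, adjusted p = 0.287). Neither gene overlapped between the groups, nor did *Deptor* (log2 fold change 0.19, edgeR, adjusted p = 0.363). On no-Trp 0 of 9 members were called by edgeR and by DESeq2, where edgeR called 0.0474% and DESeq2 0.441% of all genes. No member had an unadjusted p under 0.05, against 1371 of all 14759 genes. *Ddit4* was at 5.97, 19.3 and 21.3 CPM on no-Trp and at 38.4 and 35.4 CPM on the control diet. The groups did not overlap, and the log2 fold change was -1.22 ± 0.614 (SE, edgeR, adjusted p = 0.556). *Sesn2* (-0.35, edgeR, adjusted p = 0.7) and *Deptor* (0.12, edgeR, adjusted p = 0.79) did not overlap either. The nearest *Sesn2* livers were at 9.88 CPM on no-Trp and 9.89 CPM on the control diet. With so few mice, groups can lie apart by chance, and lack of overlap says little by itself. *Eif4ebp1* was at 61.1 and 61.6 CPM in the control livers, with log2 fold changes of 0.01 on no-Cys and 0.02 on no-Trp. With only 2 control mice, whose libraries both comparisons share, the 95% intervals of *Eif4ebp1* were -0.31 to 0.33 and -0.32 to 0.35.

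Over all 6 groups, 4 of the 9 members varied by the edgeR test of any difference, where 33.4% of all genes did. They were *Eif4ebp1* (adjusted p = 7.62e-05), *Eif2ak3* (adjusted p = 0.000434), *Sesn2* (adjusted p = 0.00168) and *Eif4ebp2* (adjusted p = 0.0132). *Eif4ebp1* was ordered from *Cse*-/- no-Cys (113 CPM) to no-Trp + BSO (89.7), *Cse*-/- no-Trp (63.3), *Cse*+/- no-Trp (62.1), *Cse*+/- no-Cys (61.7) and the control diet (61.4). Of these neighbours, only no-Trp + BSO and *Cse*-/- no-Trp did not overlap. *Eif2ak3* followed nearly that order, from 20.8 and 20.1 CPM in *Cse*-/- no-Cys and no-Trp + BSO livers to 14.3 in *Cse*-/- no-Trp, 12.5 and 11.6 in *Cse*+/- no-Cys and no-Trp, and 9.09 in control livers. Its only neighbours without overlap were again no-Trp + BSO and *Cse*-/- no-Trp.

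*Sesn2* was ordered *Cse*-/- no-Cys (19.5 CPM), no-Trp + BSO (17.8), *Cse*-/- no-Trp (13.8), *Cse*+/- no-Cys (11.5), control (11.4) and *Cse*+/- no-Trp (8.97), and only the last pair did not overlap. *Eif4ebp2* ran from 77.6 CPM in *Cse*-/- no-Cys to 48.9 CPM in *Cse*+/- no-Trp livers with every pair of neighbours overlapping. Of the members that did not vary by this test, *Eif2ak4* ran from 9.2 CPM in *Cse*+/- no-Cys to 6.43 CPM in *Cse*-/- no-Cys livers, *Sesn1* from 17.1 to 13.5 CPM in the same groups and *Deptor* from 335 to 293 CPM in the same groups. *Sesn3* ran from 2.13 CPM in *Cse*-/- no-Trp to 1.4 CPM in *Cse*+/- no-Trp livers. *Ddit4* was highest in the control livers (36.9 CPM) and lowest in *Cse*-/- no-Trp livers (9.44 CPM). In each of these 5 genes all neighbours in the order overlapped.

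**Figure D3:**
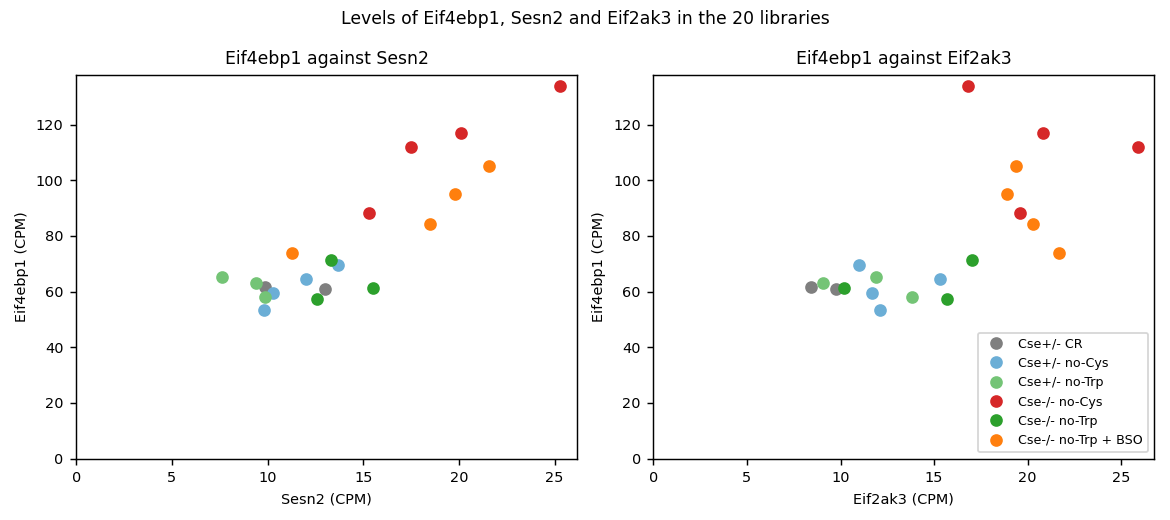
Level of *Eif4ebp1* (vertical axes, CPM) against *Sesn2* (left) and *Eif2ak3* (right) in the 20 libraries, coloured by group. The 4 *Cse*-/- no-Cys livers and 3 of the 4 no-Trp + BSO livers lie at 84.3 CPM of *Eif4ebp1* or above, and the other livers lie at 73.9 CPM or below.

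In the same livers, *Sesn2* and *Eif4ebp1* were high together. The 4 *Cse*-/- no-Cys livers and 3 of the no-Trp + BSO livers had 84.3 to 134 CPM of *Eif4ebp1* and 15.3 to 25.3 CPM of *Sesn2*, whereas the other livers had at most 73.9 CPM of *Eif4ebp1* and at most 15.5 CPM of *Sesn2*. The fourth no-Trp + BSO liver, mouse av12, had the lowest values of its group for both genes (73.9 and 11.3 CPM) but the highest for *Eif2ak3* (21.7 CPM). Among *Cse*-/- no-Cys livers, mouse av07 was highest for *Eif4ebp1* and *Sesn2* (134 and 25.3 CPM) and lowest for *Eif2ak3* (16.8 CPM). The position of *Eif2ak3* within these groups therefore was not that of the other genes. These points share library and depth, and no test was made of their order.

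The members differed in how evenly mice of a group expressed them. *Ddit4* had an SD within groups of 0.91 on the log2 CPM scale, larger than that of 99.7% of 4389 genes of similar level, whose median was 0.17. Its highest and lowest livers (42.9 and 4.45 CPM) were 9.66-fold apart. *Deptor* was the most even, with an SD of 0.09 and a 1.38-fold range from 263 to 362 CPM. The SD of *Eif4ebp1* was 0.18, that of *Sesn2* 0.29 and that of *Eif2ak3* 0.25.

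**Figure D4:**
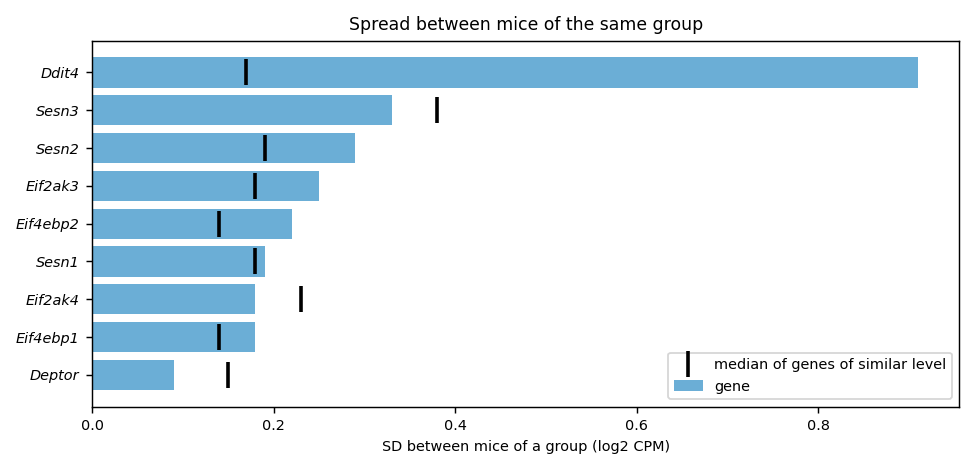
SD between mice of the same group on the log2 CPM scale (bars, horizontal axis from 0), pooled over the 6 groups, with the median SD of genes of similar level (black marks). The bar of *Ddit4* reaches 0.91, and those of the other members lie between 0.09 and 0.33.

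The genes whose levels were most like those of a member over the 20 libraries were taken from 12542 genes by Pearson correlation of log2 CPM. These are descriptions over libraries that share their groups and depth. For *Eif4ebp1* they were *Psmb5* (0.96), *Cbr3* (0.95) and *Vars* (0.95). For *Eif2ak3* they were *Dnajb9* (0.94), *Alg2* (0.93) and *Dpagt1* (0.92), and for *Sesn2* *Dmap1* (0.89), *Mpg* (0.88) and *Pold4* (0.88). With group means removed, the values in the same order were 0.79, 0.74 and 0.69 for *Eif4ebp1*. They were 0.69, 0.77 and 0.55 for *Eif2ak3*, and 0.64, 0.71 and 0.67 for *Sesn2*. The genes most like *Ddit4* were *Sla* (0.83), *Tat* (0.8) and *Klf2* (0.77), with 0.86, 0.85 and 0.73 after group means were removed. For *Eif4ebp2* they were *Crkl* (0.94), *Pdpr* (0.93) and *Sntb1* (0.93), and for *Eif2ak4* *Rassf8* (0.86), *Zfp281* (0.85) and *1700066M21Rik* (0.84). With group means removed, these were 0.9, 0.93 and 0.88 for *Eif4ebp2* and 0.74, 0.8 and 0.57 for *Eif2ak4*. The genes most like *Deptor*, *Sesn1* and *Sesn3* were *Smagp* (0.84), *Hoga1* (0.81) and *Usp34* (0.84).

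The rest of the machinery was described with 71 further genes of the pathway in 6 lists, all of which were tested. Between the genotypes on no-Cys, 18 were higher and 3 were lower in *Cse*-/- livers by edgeR, which is 29.6% against 23.8% of all genes, and the median log2 fold change was 0.13. Of 15 genes of the eIF2 kinases, eIF2 and its exchange factor eIF2B, 6 were higher and 1 was lower, where 11.6% of all genes were higher and 12.2% lower. Neither this list nor the 71 genes together were tested against these shares. *Impact*, an inhibitor of GCN2, was at 19.4 ± 3.48 against 11.5 ± 1.57 CPM (SD, n = 4 each), a log2 fold change of 0.75 (edgeR, adjusted p = 0.000806). *Eif2s1*, which encodes the subunit of eIF2 that these kinases phosphorylate, had a log2 fold change of 0.68 (edgeR, adjusted p = 0.000231). *Eif2ak2*, the kinase activated by double-stranded RNA, was lower at -0.53 (edgeR, adjusted p = 0.00648). *Atf4* itself was at 129 ± 31.1 against 97.2 ± 10.8 CPM (SD, n = 4 each) and did not pass (edgeR, adjusted p = 0.137).

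For the counts of the other 5 lists, the shares of all genes are again 11.6% higher and 12.2% lower. No list was tested against them, and the counts are not a result about the lists. Among the nutrient sensors upstream of mTORC1, 3 of 11 genes of GATOR1, GATOR2 and KICSTOR were higher, with the largest log2 fold change in *Itfg2* (0.55, edgeR, adjusted p = 0.00338), and none was lower. Of 17 Rag, Ragulator and other sensor genes, *Lars* was higher (0.68, edgeR, adjusted p = 6.83e-05), while *Castor1* (-0.81, edgeR, adjusted p = 0.00702) and *Bmt2* (-0.44) were lower. *Lars* encodes leucyl-tRNA synthetase, *Castor1* an arginine sensor and *Bmt2* the sensor of S-adenosylmethionine. Of 5 genes of the TSC complex and Rheb, *Rheb*, the activator of mTORC1, was higher (0.3, edgeR, adjusted p = 0.00524), and of 11 genes of the mTOR complexes *Tti1* (0.4) and *Akt1s1* (0.34) were. Of 12 genes of translation and lysosome outputs 5 were higher, 4 of them between 0.32 and 0.33. The fifth was *Eif4ebp3*, the remaining 4E-BP, at 10.3 ± 2.54 against 4.92 ± 0.793 CPM (SD, n = 4 each, log2 fold change 1.08, edgeR, adjusted p = 0.00957). Its *Cse*-/- no-Cys livers (8.12 to 13.9 CPM) overlapped those on no-Trp (8.04 to 8.5 CPM) and no-Trp + BSO (9.46 to 12.7 CPM). They were below the control livers (23 and 22.8 CPM), and *Cse*+/- no-Trp livers were at 4.3 to 17.6 CPM. Its counts are uncertain, because 67.3% of its exon bases are shared with an annotated gene on the same strand.

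**Figure D5:**
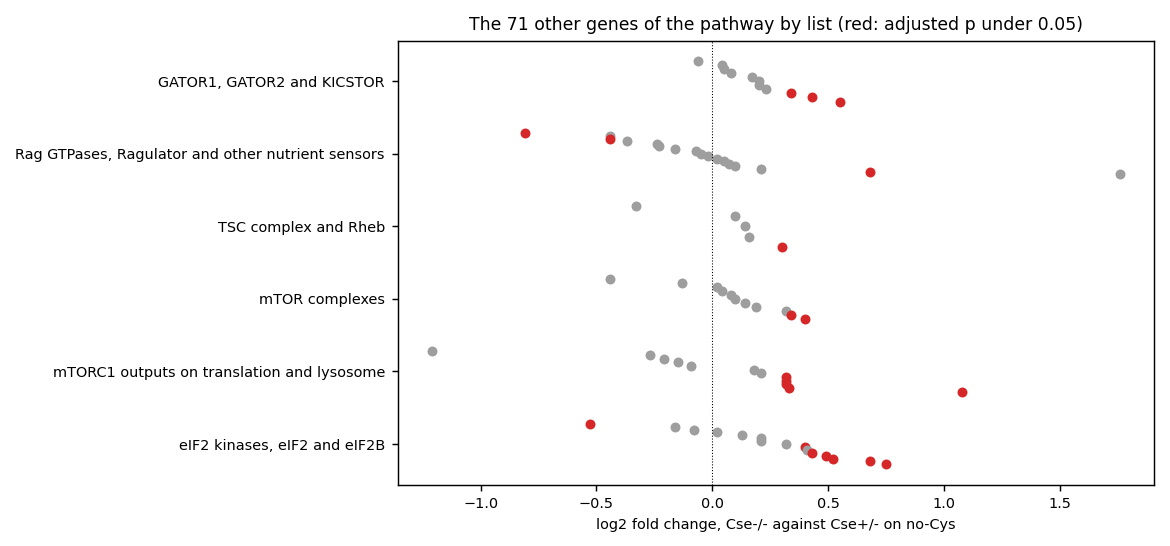
Log2 fold change between the genotypes on the no-Cys diet (horizontal axis) of the 71 further genes of the pathway, in 6 lists (rows); each point is a gene, and red marks an adjusted p under 0.05. The 18 higher and 3 lower genes are spread over all 6 lists; the point at 1.76 is *Rragb*, which had at most 0.358 CPM on average in these groups.

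In the other comparisons few of the 71 genes were called. Within *Cse*-/- mice, no-Cys livers had 4 higher and 2 lower genes than no-Trp livers by edgeR, or 8.45%, where 10.4% of all genes were called. Their number is not a result about these genes, and with a library left out it ran from 2 (without mouse av14) to 10 (without mouse av08). The genes were *Lars* (0.65), *Eif2b5* (0.41), *Eif2s1* (0.38) and *Eif2b2* (0.35), and lower *Bmt2* (-0.59) and *Ppp1r15b* (-0.34), a regulatory subunit of the eIF2 phosphatase. On no-Trp 1 of the 71 genes (1.41%, against 2.64% of all genes) differed between genotypes by edgeR. It was *Tsc1*, a subunit of the TSC complex, with 37.5 ± 1.96 against 27.2 ± 1.59 CPM (SD, n = 3 each, log2 fold change 0.46, edgeR, adjusted p = 0.0166). No gene of the 71 was called without mouse av15, without mouse av16 or in a fit of the compared groups alone. The interaction called only *Eif2b4* (0.57, edgeR, adjusted p = 0.0242), where it called 4.36% of all genes. The count was 0 without mouse av02, av15 or av17, 4 without mouse av08 and 5 by DESeq2, which called 8.06% of all genes. In *Cse*+/- mice, no-Cys livers were lower than control livers only in *Eif4ebp3*, at 4.12 to 5.95 CPM against 23 and 22.8 CPM (-2.22, edgeR, adjusted p = 0.00119), where 2.18% of all genes were called. With BSO against without, 0 of the 71 were called by edgeR (0.793% of all genes) and 0 by DESeq2 (2.8%). Of the 71, 8 had an unadjusted p under 0.05, against 1926 of all 14759 genes. Between no-Cys and no-Trp + BSO, edgeR called 0 (2.75% of all genes) and DESeq2 called 2 (6.44% of all genes). By edgeR, 18 of the 71 had an unadjusted p under 0.05, against 2958 of all 14759 genes. Without mouse av08 edgeR called 3 of the 71, and with any other library left out it called 0. Between no-Trp and control livers of *Cse*+/- mice, both tools called 0 (0.0474% of all genes by edgeR and 0.441% by DESeq2). Of the 71, 4 had an unadjusted p under 0.05, against 1371 of all 14759 genes. Without mouse av17 edgeR called 1 of the 71.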

How the data were processed

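Reads of liver poly(A) RNA were aligned by the authors to GRCm38 with HISAT2 2.1.0 and counted per Ensembl gene with HTSeq 0.11.0, and the deposited values are these raw counts. The release of the gene annotation was not given in the sources used here. Of 21 columns, 20 were used and 1 was not. Columns were given their group by the mouse numbers of the study's list. Symbols, exon lengths and coordinates come from a GRCm38 annotation, and 45229 of 46078 genes had a symbol.

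The filterByExpr filter (at least 10 counts in enough libraries and 15 in all) left 14759 genes. After TMM scaling, all 20 libraries entered a single quasi-likelihood fit of 6 group means with edgeR 4.0.16 in R 4.3.3 (limma 3.58.1). Two-sided p-values were adjusted over these genes (Benjamini-Hochberg), and a gene was called under 0.05. The SE is the size of the log2 fold change over the root of its F statistic. CPM per kilobase are CPM divided by exon length. Likeness used log2 CPM with a prior count of 2 and genes of at least 1 CPM on average. Genes of similar level are those within 2-fold. The share of all genes whose groups did not overlap was not counted in any comparison. Pairs of libraries of a group differed by more than counting noise (chi-square per gene 9.6 to 64.2 over 25 pairs, with the library of mouse av08 apart from its group), so p-values rest on the spread between mice.

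The members, lists, comparisons and alternatives were chosen with earlier results of these data known. Named genes are the 9 members, the highest and the lowest called gene of each pathway list in the main comparison, genes called in a comparison where at most 3 of a list were, *Cth* and the 3 genes most like each member (the first only for *Deptor*, *Sesn1* and *Sesn3*). The values of 1 gene that this rule names are not reported here. *Atf4* and *Rragb* were named after their values were seen. As alternatives, genes were tested with DESeq2 1.42.0 (Wald test, shares over the genes it gave an adjusted p), with RLE or upper-quartile scaling, with all genes that had a count, with genes of at least 1 CPM on average, in the compared groups alone, and without each library in turn. Figures used Python 3.11.15 and matplotlib 3.10.9.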

Additional observations from a re-analysis of the deposited data

Results flagged for a closer look

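The *Eif2ak4* level of mouse av12 stood apart from the other no-Trp + BSO livers, at 7.88 CPM against 6.23 to 6.47 CPM, and the gap was 0.855 of the range of the group, above Dixon's 95% critical value for 4 samples. It was the only such value among 27 sets of 4 values, each a member in a group of 4 livers. The same livers recur for each member. Chance passes this check in about 1 of 20 sets. The same mouse was the lowest of its group for *Sesn2* and *Eif4ebp1*. The genotype difference of *Eif4ebp1* differed between diets by 0.84 on the log2 scale (edgeR, adjusted p = 0.0154), with 0.87 on no-Cys and 0.03 on no-Trp.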

How the results depend on the processing

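Of 134 recounts of the called members under alternatives, 125 stayed within 1.5 times the count reported. For no-Cys against no-Trp in *Cse*-/- livers the count of 1 became 2 with DESeq2 and 3 with no filter, and 1 to 2 with a library left out. For no-Trp + BSO against no-Trp the count of 0 became 1 with DESeq2 and 1 with no filter. With a library left out, the count of 0 was 0 to 1 for the genotypes on no-Trp (1 without mouse av14, *Eif4ebp2*) and 0 to 1 for no-Cys against no-Trp + BSO (1 without mouse av08). Of the 72 differences of a member in a comparison, 34 were followed singly: all 9 in the main comparison, those of *Eif4ebp1*, those with an unadjusted p under 0.05 or no overlap, and 3 others printed above. Among these, the uncalled log2 fold changes that crossed 0 with a library left out were those of *Ddit4* between the genotypes on no-Cys, -0.27 to 0.35, of *Eif2ak3* between no-Cys and no-Trp + BSO, -0.069 to 0.145, and of *Eif4ebp1* between the genotypes on no-Trp, -0.074 to 0.082, on no-Cys against control, -0.044 to 0.082, and on no-Trp against control, -0.013 to 0.071. Of the other 38, none of them called as reported, 15 changed sign under at least 1 alternative, and none was called where it did. The cause was not tested. In the main comparison the calls of *Eif4ebp1* (0.8 to 0.97), *Sesn2* (0.64 to 0.87) and *Eif2ak3* (0.6 to 0.84) held under all 14 alternatives, and that of *Eif2ak4* (-0.62 to -0.43) under 13. *Sesn1* passed without mouse av08 (adjusted p = 0.022) and *Deptor* without mouse av01 (adjusted p = 0.0479), both by edgeR. The interaction of *Eif4ebp1* (0.78 to 0.94) held under all 20. The number of all genes called, which sets the shares beside the members, moved by over 1.5 times with a library left out in all comparisons but the genotypes on no-Cys (2664 to 3500, against 3515) and any difference among the groups (4022 to 5063, against 4936). It was 109 (without mouse av15) to 421 for the genotypes on no-Trp, against 389, 683 (without mouse av14) to 1855 for no-Cys against no-Trp, against 1535, and 36 (without mouse av09) to 172 for BSO, against 117. It was 350 (without mouse av07) to 1150 (without mouse av08) for the interaction, against 643, 10 to 418 for no-Cys against control, against 322, and 2 to 9 for no-Trp against control, against 7. With DESeq2 it was 720 for the genotypes on no-Trp, 352 for BSO, 876 for no-Cys against no-Trp + BSO (406 as reported), 613 for no-Cys against control, 60 for no-Trp against control and 1055 for the interaction. With only the compared groups fitted it was 83 for the genotypes on no-Trp, 521 for no-Cys against no-Trp, 75 for BSO, 138 for no-Cys against control, 3 for no-Trp against control and 375 for the interaction. With no filter it was 287 for BSO, 486 for no-Cys against control and 71 for no-Trp against control. No paired analysis was possible because the columns carry no replicate numbers. The 2 control mice and the 14 to 79 counts of *Sesn3* limit what those comparisons can show.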
